A study of Mus musculus with 8 samples.

Results

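The enzymes of glycogen synthesis and breakdown were followed in C2C12 muscle cells that carried an HDAC4 retrovirus and in control cells. The set holds 8 genes chosen by symbol: the phosphorylases Pygm and Pygb, the phosphorylase kinase subunits Phka1 and Phkg1, glycogenin (Gyg), the UDP-glucose pyrophosphorylase Ugp2, glycogen synthase (Gys1) and the branching enzyme Gbe1. They were 8 genes beside 8741 named genes tested on the arrays, and 10 probes named one of them and no other gene. Of the 8 genes, 7 had enough values to be compared, and the single probe for Phkg1 had no value on any array.

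C2C12 is a mouse myoblast cell line whose cells leave the cell cycle in low serum and fuse to multinucleated myotubes. There were 4 samples of cells selected with a retrovirus carrying HDAC4 and neomycin resistance (HDAC4) and 4 of cells selected with a retrovirus carrying neomycin resistance alone (Neo), so both groups share the selection marker. HDAC4 is a class IIa histone deacetylase that binds MEF2 transcription factors, and the study asked what its expression does to muscle gene expression. All cells reached 90% confluence and then spent 4 days in 2% horse serum. RNA from the cells (Cy5) was hybridised with a common murine reference RNA (Cy3) on 2-colour arrays, so each value is a log2 ratio of cells to reference, centred on the median of its array. That direction is likely rather than stated: it was read from muscle genes, and every sign below depends on it. The labels name neither clones nor pools. They do not tell whether samples of a group were grown apart, so p-values here rest on a spread between samples that may be technical.

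Glycogen is the glucose store of muscle. Glycogenin starts each chain by adding glucose to itself, the pyrophosphorylase Ugp2 makes the UDP-glucose that is the building block, glycogen synthase lengthens the chain and the branching enzyme adds branch points. Glycogen phosphorylase releases glucose phosphate from chain ends when it has been activated by phosphorylase kinase, which responds to calcium and to cAMP signalling and so ties fuel supply to contraction. Phosphorylase comes in muscle (Pygm), brain (Pygb) and liver (Pygl) isoforms, and in humans loss of the muscle isoform causes McArdle disease.

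The arrays carried values for 17014 to 18521 probes in HDAC4 and for 19248 to 22193 in Neo, out of 31769. Muscle markers had the ratios from which the direction was read, so their side of the reference is no result: the median over the 6 tested genes of 8 listed was 7.90 to 8.48 on HDAC4 arrays and 7.86 to 8.53 on Neo arrays (log2 ratio). Of their 61 values, 59 had the reference signal at an inferred minimum, described below for Pygm, so these sizes follow the signal of the cells. In the list for proliferating myoblasts, 5 of 7 genes were tested. The cell cycle genes Cdk1, Mki67, Top2a and Mcm5 lay below the reference on all arrays, with values from -4.60 to -2.29. The myoblast factor Myf5 lay above it on all 7 arrays with a value (0.98 to 1.89), 5 of them with the reference at that minimum, and Pax7 had no value. Fibroblast markers had medians over 5 tested genes of 6 between -2.91 and -1.40 in HDAC4 and between -3.20 and -2.83 in Neo, but the list was split. Col1a2, Pdgfra and Thy1 lay below the reference on all arrays with a value (-6.46 to -2.19). Col3a1 lay above it on all 8 (1.35 to 2.29), and Dcn ran from -2.82 to 0.23. None of these lists had a gene past the threshold. Thy1 had a change of 1.29 (limma unadjusted p = 0.0492, adjusted p = 0.677), where 7.34% of all features had an unadjusted p under 0.05. Its groups overlapped, with 3 HDAC4 values close together (SD 0.11) and 4 widely spread Neo values (SD 1.21). No probe is named for Hdac4, so the group labels could not be checked against it. The arrays numbered 1 stood apart in both groups (correlation 0.94 with each other and at most 0.90 with any other array).

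None of the glycogen enzyme genes differed between HDAC4 and Neo cells past the threshold, in either direction. The test was limma over 14750 features with p-values adjusted over all of them, and it called 0 of 7 members, beside 17 or 0.115% of all features. At an unadjusted p under 0.05 it found 0 of the 7, beside 7.34% of all features. Mean log2 changes (HDAC4 minus Neo) ran from -0.36 for Pygm to 0.26 for Gbe1, 4 of them negative and 3 positive. Their median was -0.11, beside -0.0028 over all features. It was -0.0527 without HDAC4 replicate 4, -0.0181 without Neo replicate 1, -0.1618 without Neo replicate 4 and -0.0377 without both arrays numbered 1. The groups overlapped for every one of the 7, while 5.32% of all features had groups that did not overlap. For all 7 the 95% interval of the change lay within 1 log2 unit of 0, the outermost bounds being -0.76 (Pygm) and 0.74 (Gbe1). Changes of 2-fold or more therefore lay outside all 7 intervals. Of all features tested, 87.6% had such an interval.

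**Figure D1:**
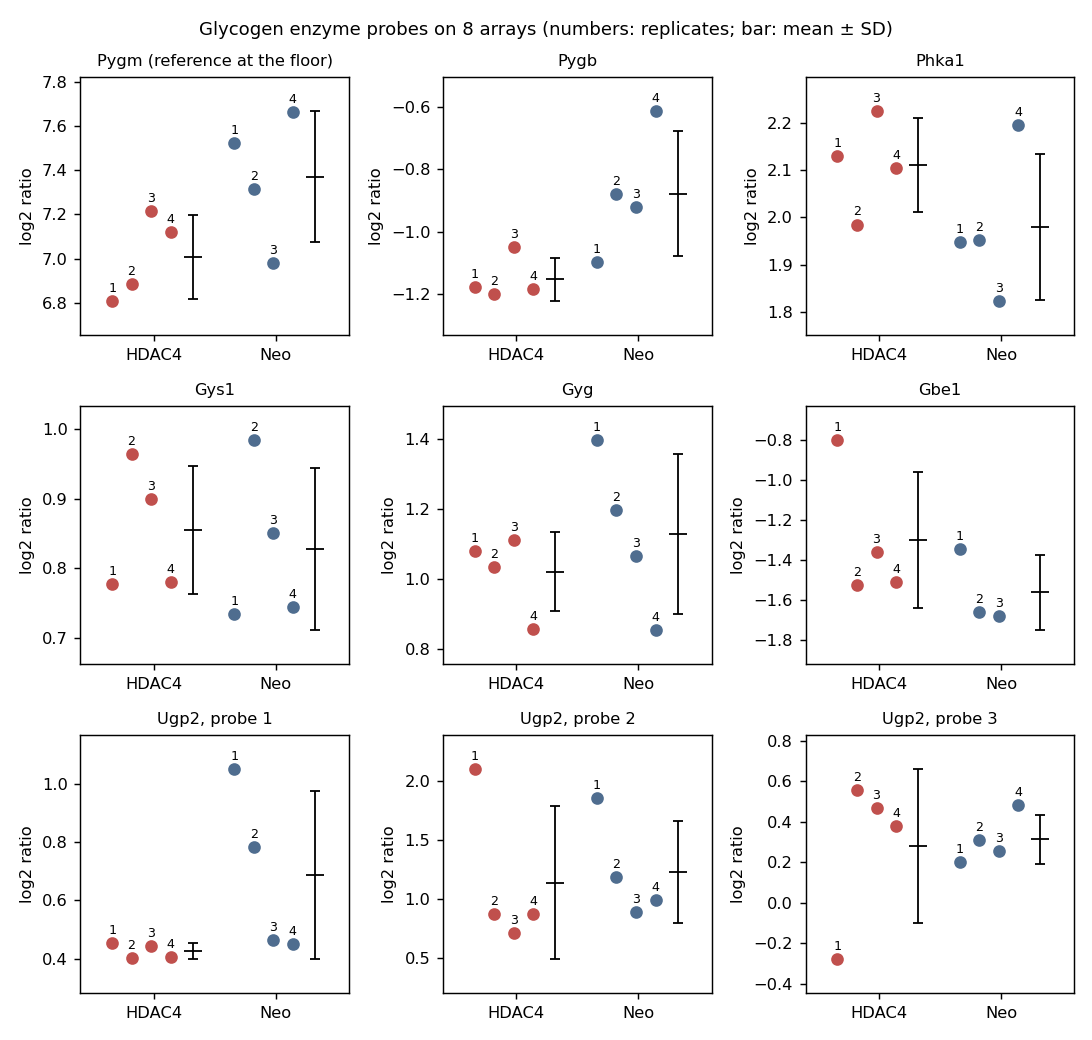
Log2 ratio of cells to reference (vertical axis, scaled per panel) for the 9 glycogen enzyme probes with values, in HDAC4 (red) and Neo (blue); numbers are replicates and the black bar is the mean ± SD. The groups overlap in every panel, and the arrays numbered 1 stand apart for Ugp2 probe 2 in both groups.

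Pygm encodes muscle phosphorylase, the isoform that breaks down glycogen in contracting fibres. Its log2 ratios were 6.81, 6.89, 7.21 and 7.12 in HDAC4 replicates 1 to 4, against 7.52, 7.31, 6.98 and 7.66 in Neo replicates 1 to 4. The 2 lowest arrays were HDAC4 replicates 1 and 2 and the 2 highest were Neo replicates 4 and 1, but Neo replicate 3 lay below HDAC4 replicates 3 and 4. The means were 7.01 ± 0.19 in HDAC4 and 7.37 ± 0.30 in Neo (SD, n = 4 each), an HDAC4 over Neo fold of 0.777 with a 95% interval of 0.592 to 1.02 (limma log2 change -0.36 ± 0.18, SE; adjusted p = 0.724). An exact two-sided permutation test gave p = 0.114, where the smallest p that 4 against 4 arrays allow is 0.0286. In bulk RNA a lower ratio from fewer fused cells cannot be told apart from one due to less of the transcript per cell.

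The Pygm probe differed from the other members in how its value arose. On all 8 arrays the reference signal was at an inferred minimum (the floor, 10 units), so its ratio follows the signal of the cells alone. In those units the cells gave 1126, 1194, 1508 and 1415 in HDAC4, against 1860, 1598, 1273 and 2067 in Neo. Probes of this kind were shifted as a group: over the 206 that were at the floor throughout, HDAC4 minus Neo had a median of -0.55. Above a log2 ratio of 6, where Pygm lies, there were 42 such probes with a median of -0.26, of which 33 were lower in HDAC4. Among those 42, 15 had a change further below 0 than Pygm. With the offset of all floor probes removed the Pygm change turned to 0.19 (adjusted p = 0.886), and with the offset of those above a log2 ratio of 6 it was -0.11 (adjusted p = 0.954). The sign of the Pygm change therefore depends on how values at the floor are treated. The 206 probes include muscle genes such as Ckm, Actn2, Myh2 and Mb. Whether their shift is technical or a change of muscle transcripts was not tested, and removing an offset would take out both.

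**Figure D2:**
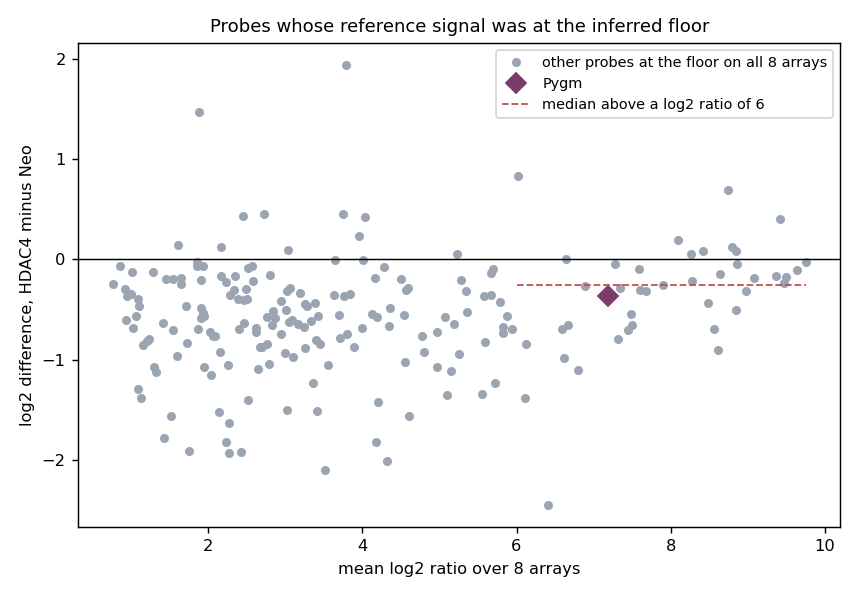
Change between HDAC4 and Neo (vertical axis, log2) against the mean log2 ratio over 8 arrays (horizontal axis) for the 206 probes whose reference signal was at the inferred floor throughout. Pygm (diamond, -0.36) lies close to the dashed line, the median of -0.26 over the 42 probes above a log2 ratio of 6.

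The 250 bases before the transcription start are shown for the muscle and the brain phosphorylase, the isoforms with values on these arrays. E-boxes, the sites that MyoD and related myogenic factors bind, are in capitals (CANNTG, which reads as CANNTG on the other strand). Sequences are from RefSeq, build GRCm38.p6, read 5′ to 3′ on the plus strand of chr19:6384158-6384407 for Pygm and chr2:150786546-150786795 for Pygb, and both windows end at the base before the start.
Pygm: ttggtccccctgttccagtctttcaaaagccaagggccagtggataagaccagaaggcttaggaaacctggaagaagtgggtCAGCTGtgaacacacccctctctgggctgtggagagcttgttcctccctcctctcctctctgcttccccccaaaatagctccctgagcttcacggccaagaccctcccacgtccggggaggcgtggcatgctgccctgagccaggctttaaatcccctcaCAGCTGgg
Pygb: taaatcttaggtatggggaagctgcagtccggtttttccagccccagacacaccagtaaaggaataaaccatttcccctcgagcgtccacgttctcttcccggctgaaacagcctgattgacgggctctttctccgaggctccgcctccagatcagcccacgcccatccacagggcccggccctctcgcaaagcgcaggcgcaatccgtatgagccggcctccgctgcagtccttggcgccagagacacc

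The Pygm window held 2 E-boxes, both CAGCTG, with their first bases at -168 and -8 from the start. The Pygb window held 0. All 8 genes had a window, 9 in all because Ugp2 has 2 starts, and CANNTG occurred in every one but that of Pygb. It occurred in 66.2% of all 32851 windows of this length, and 31.8% held it 2 or more times, as Pygm does, so it is common. The narrower CAGCTG, a subset of CANNTG matches, occurred in the windows of Pygm, Phka1, Gys1 and 1 of the Ugp2 starts, against 13.0% of all windows, and 1.26% held it at least 2 times, as Pygm does. The MEF2 consensus, searched by name on both strands, had no match in the 9 windows and one in 2.92% of all. These are matches of letters in short windows and say nothing of binding.

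**Figure D3:**
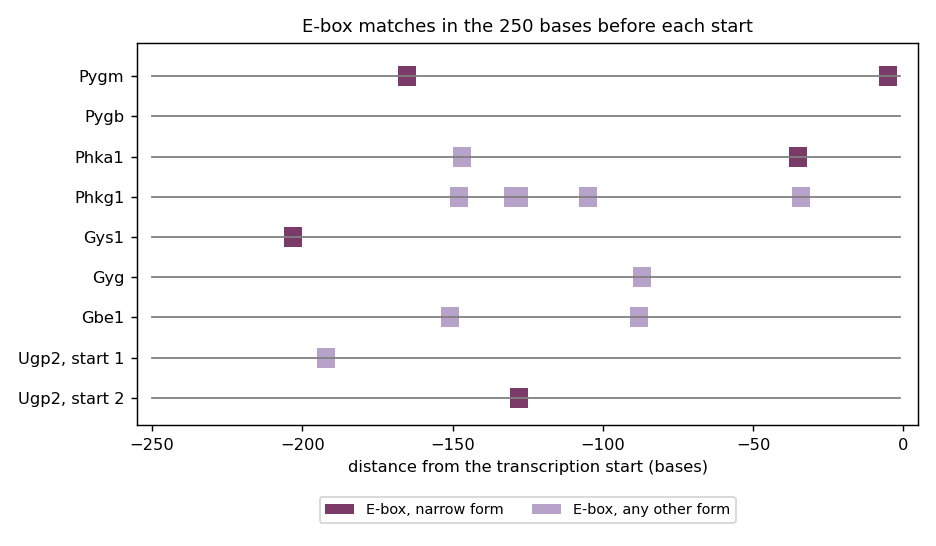
E-box matches (bars) by distance in bases from the transcription start (horizontal axis) in the 9 windows of 250 bases before the starts of the 8 genes. Dark bars are the narrow form, which Pygm has 2 times; Pygb has no bar.

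Pygb, the brain isoform of phosphorylase, lay below the reference in all samples, at -1.18, -1.20, -1.05 and -1.18 in HDAC4 and at -1.10, -0.88, -0.92 and -0.61 in Neo. All HDAC4 arrays but replicate 3 lay below every Neo array, and HDAC4 replicate 3 lay above Neo replicate 1 alone. The HDAC4 values were close together (mean -1.15 ± 0.07) and the Neo values more spread (mean -0.88 ± 0.20; SD, n = 4 each). The fold was 0.827 with a 95% interval of 0.671 to 1.02 (limma log2 change -0.27 ± 0.13, SE; adjusted p = 0.739; exact permutation p = 0.0571). No value of Pygb was at the floor. HDAC4 was lower within all 4 same-numbered pairs, with differences of -0.08, -0.32, -0.13 and -0.57 for numbers 1 to 4. Among the tested members, Pygb and Gbe1 alone had the same sign in every pair with both values, with 3 such pairs for Gbe1. How many of all features do so was not counted, and the labels do not say that a shared number marks a pair.

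Markers of the other tissues these isoforms are named for were mostly without values. Of 4 brain markers 3 had a probe, and Gfap and Snap25 had no value on any array while Syp had 1, on an HDAC4 array. The liver isoform Pygl and the liver glycogen synthase Gys2 each had 1 probe and no value on any array. Of the 9 liver markers 8 had a probe and 0 could be tested, although a labelling protocol names liver as the source of the reference. Apoa1, Ttr and Serpina1a had 2, 1 and 4 values, all with the reference at the floor. Apoh had 3 values, 2 of them at the floor. The source of the reference was not tested. Of 4 adipocyte markers 3 had a probe and 0 could be tested. Why a probe has no value is not stated, so a missing value sets no limit on a level.

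Phosphorylase kinase activates phosphorylase, and Phka1 encodes the regulatory alpha subunit found in muscle. The gene stood at 2.13, 1.98, 2.22 and 2.10 in HDAC4, against 1.95, 1.95, 1.82 and 2.19 in Neo. The groups overlapped because Neo replicate 4 was higher than all HDAC4 arrays but replicate 3. Means were 2.11 ± 0.10 in HDAC4 and 1.98 ± 0.16 in Neo (SD, n = 4 each), with a fold of 1.09 and a 95% interval of 0.897 to 1.34 (limma log2 change 0.13 ± 0.13, SE; adjusted p = 0.902; exact permutation p = 0.229). Phkg1, the catalytic gamma subunit of muscle, was not measured. Phka2, the liver-type alpha subunit, had values on 2 HDAC4 and 4 Neo arrays, between -0.39 and 0.62, and was not tested. Phkg2, the gamma subunit of liver and testis, averaged -0.06 ± 0.24 in HDAC4 and -0.24 ± 0.23 in Neo (SD, n = 4 each; log2 change 0.17, limma adjusted p = 0.902).

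Gys1, the muscle glycogen synthase, had the smallest difference of the 7 members. Its log2 ratios were 0.78, 0.96, 0.90 and 0.78 in HDAC4 and 0.73, 0.98, 0.85 and 0.74 in Neo. All 4 HDAC4 arrays lay inside the Neo range, and in both groups replicate 2 was highest and replicate 3 next. The means of 0.86 ± 0.09 in HDAC4 and 0.83 ± 0.12 in Neo (SD, n = 4 each) gave a fold of 1.02 with a 95% interval of 0.844 to 1.23 (limma adjusted p = 0.978; exact permutation p = 0.714). The within-group SD of Gys1 was 0.11, at percentile 4.25 of all features.

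Gyg, the glycogenin that primes a new chain, stood at 1.08, 1.04, 1.11 and 0.86 in HDAC4 and at 1.40, 1.20, 1.07 and 0.86 in Neo. Neo replicates 1 and 2 were the highest of all, and replicate 4 was the lowest of its group in both. The means were 1.02 ± 0.11 in HDAC4 and 1.13 ± 0.23 in Neo (SD, n = 4 each), a fold of 0.928 with a 95% interval of 0.740 to 1.16 (limma adjusted p = 0.934; exact permutation p = 0.457).

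Gbe1, which adds branch points, lay below the reference at -0.80, -1.52, -1.36 and -1.51 in HDAC4 and at -1.34, -1.66 and -1.68 in Neo replicates 1 to 3, with no value in Neo replicate 4. HDAC4 replicate 1 was the highest array, and in both groups the array numbered 1 was above the others. The mean was -1.30 ± 0.34 in HDAC4 (SD, n = 4) and -1.56 ± 0.19 in Neo (SD, n = 3), the largest positive change among the members, with a fold of 1.20 and a 95% interval of 0.864 to 1.67 (limma log2 change 0.26 ± 0.21, SE; adjusted p = 0.878; exact permutation p = 0.343). Without HDAC4 replicate 1 the change was 0.10. HDAC4 was higher in each of the 3 pairs with both values, by 0.54, 0.14 and 0.32.

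Ugp2, which supplies UDP-glucose, was read by 3 probes that did not move together. The first (M200006207) stood at 0.45, 0.40, 0.44 and 0.41 in HDAC4 and at 1.05, 0.78, 0.46 and 0.45 in Neo. HDAC4 arrays lay within 0.1 log2 units of each other there, while Neo replicates 1 and 2 stood above the rest. The second (M300000238) stood at 2.10, 0.87, 0.71 and 0.87 in HDAC4 and at 1.85, 1.18, 0.89 and 0.99 in Neo, so the arrays numbered 1 were far above the others in both groups, the HDAC4 one with the reference at the floor. The third (M300000239) stood at -0.28, 0.56, 0.47 and 0.38 in HDAC4 and at 0.20, 0.31, 0.26 and 0.48 in Neo, with HDAC4 replicate 1 lowest. HDAC4 replicate 1 was thus the highest array for one Ugp2 probe and the lowest for another. The changes of the 3 probes were -0.26, -0.09 and -0.03, with limma adjusted p of 0.834, 0.977 and 0.987 when each probe was fitted alone. Averaged over probes, Ugp2 had means of 0.61 ± 0.10 in HDAC4 and 0.74 ± 0.21 in Neo (SD, n = 4 each), a fold of 0.915 with a 95% interval of 0.735 to 1.14 (limma adjusted p = 0.919; exact permutation p = 0.371).

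Because the arrays numbered 1 stood apart, the changes were also taken with and without them. Within pair 1 (1 array per group, no test) the differences HDAC4 minus Neo were -0.72 for Pygm, -0.08 for Pygb, 0.18 for Phka1, 0.04 for Gys1, -0.32 for Gyg, 0.54 for Gbe1 and -0.28 for Ugp2. Among replicates 2 to 4 the limma changes were -0.25 for Pygm, -0.34 for Pygb, 0.11 for Phka1, 0.02 for Gys1, -0.04 for Gyg, 0.20 for Gbe1 and -0.08 for Ugp2. The sign of every one of the 7 was the same in both parts, but the second part pools replicates 2 to 4. Single pairs there went the other way for all members but Pygb and Gbe1. Pair 3 was positive for Pygm (0.23), Ugp2 (0.002) and Gyg (0.04). Pair 4 was positive for Gyg (0.003) and negative for Phka1 (-0.09), and pair 2 was negative for Gys1 (-0.02). Adjusted p for replicates 2 to 4 ran from 0.212 for Pygb to 0.941 for Gys1. In that fit 291 of 14750 features passed (1.97%), and 0 of the 7 members did, with Pygb alone at an unadjusted p under 0.05 (0.0253), as were 17.7% of all features.

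Other genes of glycogen metabolism were taken from lists of textbook members. Of 12 further glycogen enzymes 8 had a probe and 5 were tested, with 0 higher and 0 lower past the threshold in limma and 0 at an unadjusted p under 0.05. Their median change was -0.07. Pgm1, a phosphoglucomutase that links glycogen to glycolysis, averaged -0.23 ± 0.11 in HDAC4 and -0.40 ± 0.24 in Neo (SD, n = 4 each; change 0.17, adjusted p = 0.889). Pgm2, a related mutase, had a change of -0.12 (adjusted p = 0.956), and Gaa, the lysosomal enzyme that degrades glycogen and is lacking in human Pompe disease, one of -0.07 (adjusted p = 0.954).

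Protein phosphatase PP1 opposes phosphorylase kinase and switches glycogen synthase on, and its targeting subunits hold it on the glycogen particle. Of 12 genes of this group 8 had a probe and 5 were tested, with 0 called in limma, 0 at an unadjusted p under 0.05 and a median change of 0.12. The muscle targeting subunit Ppp1r3a and the widely expressed Ppp1r3c each had a probe and no value. Ppp1r2, the PP1 regulator called inhibitor-2, stood at -0.72, -0.54, -0.41 and -0.55 in HDAC4 and at -0.28, -0.35, -0.40 and -0.06 in Neo. Of the 5 tested genes 2 had groups that did not overlap, Ppp1r2 and Ppp1r3g, beside 5.32% of all features. All HDAC4 arrays of Ppp1r2 lay below all Neo arrays, narrowly so for HDAC4 replicate 3, with a change of -0.28 ± 0.13 (SE; limma adjusted p = 0.711). Ppp1r3g, a targeting subunit, stood at 1.19, 1.05 and 1.24 in HDAC4 replicates 2 to 4 and at 0.96, 0.83, 0.97 and 1.03 in Neo. The separation was narrow here too, with HDAC4 replicate 3 at 1.047 and Neo replicate 4 at 1.034, and it rests on 3 against 4 values. HDAC4 replicate 1 had no value, and 2 of the 3 HDAC4 values but no Neo value were at the reference floor. The change of 0.21 had an adjusted p of 0.839. Ppp1r3f and Ppp1cc, a targeting and a catalytic subunit, had changes of 0.14 (adjusted p = 0.912) and 0.12 (adjusted p = 0.920).

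Among 18 kinases and kinase subunits that act on glycogen enzymes, with calmodulin, 10 had a probe and 9 were tested. In limma 0 passed and 1 of the 9 had an unadjusted p under 0.05, beside 7.34% of all features. The median change was 0.13, with 7 positive and 2 negative. That gene was Prkar2a, a regulatory subunit of the cAMP-dependent protein kinase that activates phosphorylase kinase. It stood at 0.44, 0.24, 0.26 and 0.18 in HDAC4 and at -0.34, 0.01, 0.01 and -0.28 in Neo, with no overlap, as in 5.32% of all features, and a change of 0.43 ± 0.14 (SE; adjusted p = 0.493). Its 2 probes gave 0.16 and 0.60, and the second had no value in HDAC4 replicate 1, so that array rests on the first probe alone. The second probe lay lower (Neo means of 0.24 and -0.54), so its absence raises the value of that array. The first probe, with a value on every array, did overlap: HDAC4 replicate 3 stood at 0.31 and Neo replicate 3 at 0.39 (limma unadjusted p = 0.246). Prkar1a, another regulatory subunit, had a change of -0.27 (adjusted p = 0.854). Akt2 and Akt1, kinases of the insulin pathway, had changes of 0.21 (adjusted p = 0.797) and 0.13 (adjusted p = 0.931).

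**Figure D4:**
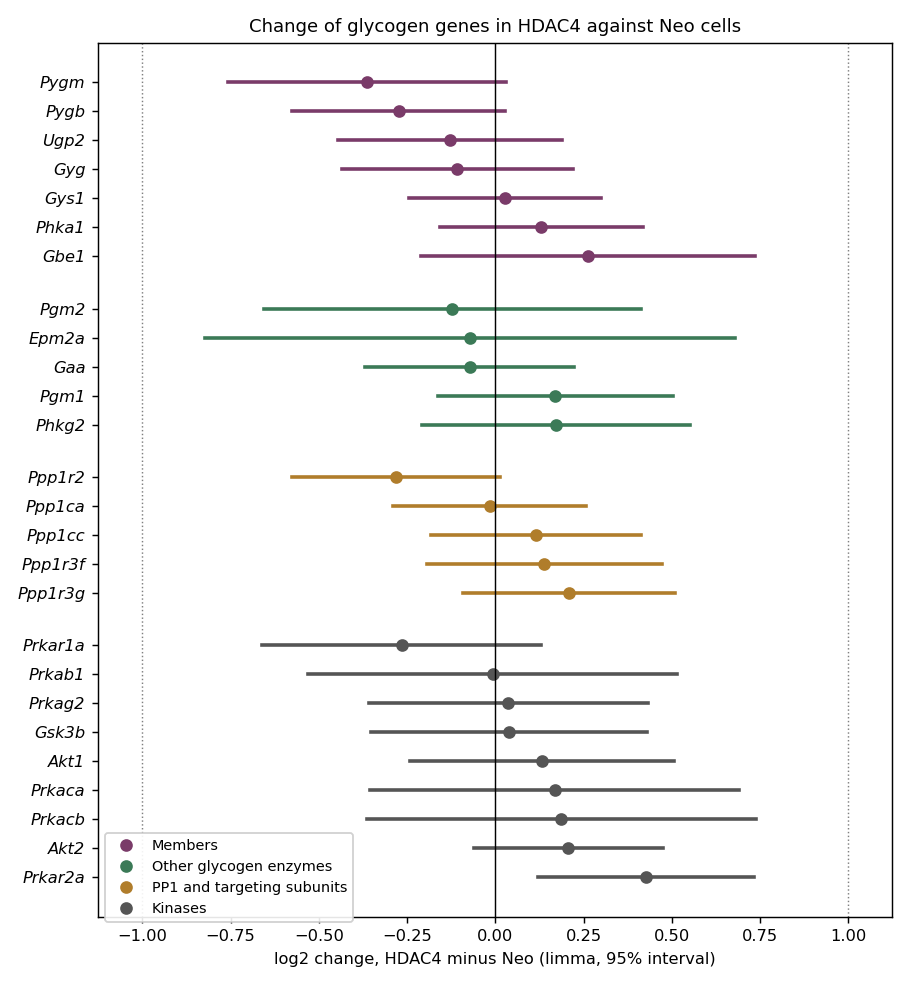
Log2 change of HDAC4 against Neo (horizontal axis; points are limma estimates, lines 95% intervals) for the 7 tested glycogen enzymes and the 19 tested genes of the other lists, grouped by colour. The intervals of all 7 members cross 0 and stay inside the dotted lines at -1 and 1; that of Prkar2a does not cross 0, with an adjusted p of 0.493.

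The profiles most like those of the muscle phosphorylase and the muscle synthase were sought over the 8 arrays among 7933 named genes with a value on all of them. Likeness was the root mean square difference between log2 ratios, each centred on the gene's own mean, and it partly reflects what the arrays share. For Pygm the 3 nearest genes were Cradd at 0.11, Olfr1392 at 0.12 and Ppp1r2 at 0.14, where the median gene was at 0.38. The changes of these 3 genes in HDAC4 were -0.34, -0.27 and -0.28, none past the threshold. The group difference is part of the likeness measure, so changes near that of Pygm follow from how the genes were picked. For Gys1 the nearest were Slc37a4 at 0.03, Rabgap1 at 0.04 and Ppm1a at 0.04, where the median gene was at 0.25. Over the 8 arrays Gys1 itself had an SD of 0.10, and Pygm one of 0.30.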

How the data were processed

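The values deposited by the authors are log2 ratios, with 1 for each of 31769 probes on an array. Per the labels, cells were labelled with Cy5 and the reference with Cy3, without dye swaps, from 10 µg of RNA. How the scans were corrected, normalized and filtered is not stated there. Probes were named from the platform annotation where it lists 1 gene (18976 probes), with symbols updated by gene identifier from RefSeq (GRCm38.p6, names only). Arrays were median-centred, probes of a gene were averaged, and 3 or more values per group were required of a feature. HDAC4 was compared with Neo by limma 3.58.1 in R 4.3.3 over 14750 features, with Benjamini-Hochberg adjustment at 0.05 and 95% intervals. The fit was tested on simulated data with independent noise, which held neither the difference of the arrays numbered 1 nor the shift of floor probes. That test therefore does not cover these features of the data. Single genes had an exact permutation test (scipy 1.17.1). A value was taken as at the reference floor where 10 times the unlogged ratio was a whole number, within 0.001, of at least 10. Precision is limited by the number of arrays.

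The rule for named genes took all members, the 4 genes with the smallest p of each other glycogen list, and the 3 genes most like Pygm and Gys1. Ppp1r3a, Ppp1r3c, Pygl, Gys2 and the marker genes without values were named for being unmeasured, and Phka2 for having too few values to be tested. Members and lists were chosen with earlier results of these data known. Same-numbered arrays deviated together from their group means (correlations 0.51, 0.28, 0.17 and 0.10 for replicates 1 to 4). All exceed 0.1, but so do some differently numbered pairs, so that limit does not settle a pairing. HDAC4 replicate 3 correlated slightly better with Neo replicate 2 (0.18). HDAC4 replicate 4 correlated better with Neo replicates 2 and 3 (0.23 and 0.20). The numbers come from the sample titles. The planned fit was unpaired, and the replicate block was an alternative. Alternatives covered centring, missing values, probe averaging, the replicate block, the arrays numbered 1, values at the floor and single arrays.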

Additional observations from a re-analysis of the deposited data

Results flagged for a closer look

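A value far from the rest of its group was found in 2 of 19 groups of 4 arrays examined, where chance gives about 1 in 20. For Ugp2 probe M300000238, HDAC4 replicate 1 stood at 2.10 and the nearest HDAC4 array at 0.87. Neo replicate 1 was also the highest of its group for this probe, at 1.85. The HDAC4 replicate 1 value was at the reference floor and the other values of the probe were not. For Pygb, HDAC4 replicate 3 stood at -1.05 and the nearest HDAC4 array at -1.18, a gap of 0.833 of the group's range against a limit of 0.829.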

How the results depend on the processing

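The count of members past the threshold was 0 under every alternative run, as was that of the other glycogen genes. The count of all features, 17 in the planned fit, was 9 with the replicate block, 92 with replicate 1 as a batch, 291 without both arrays numbered 1, and 0 to 73 with 1 array left out. It was 0 with the floor offset removed (1074 features at an unadjusted p under 0.05 in limma), 0 without probes at the floor (776) and 6 with the offset of high-ratio floor probes, the last chosen after seeing the data. Floor probes include muscle genes, so these settings would also take out a shared change of muscle transcripts, which was not tested. Pairing by replicate changed no call for a member: with the block, Pygm had an adjusted p of 0.481, Pygb 0.475 and Gbe1 0.469. The median change of members was 0.0272 with the floor offset removed, where Pygm had a change of 0.19, and ran from -0.1618 to -0.0181 with 1 array left out. Gys1, close to 0 throughout, changed sign to -0.0011 with quantile normalization and ranged from -0.009 to 0.0791 with 1 array left out. The other 5 members kept their sign in all settings run. In limma an unadjusted p under 0.05 was reached by Pygb and Gbe1 with replicate 1 as a batch (0.0412 and 0.0368), as by 13.9% of all features there. Pygb reached it without both arrays numbered 1 (0.0253; 17.7% of features) and without Neo replicate 1 (0.0233; 9.79%), and Pygm without Neo replicate 3 (0.0167; 6.18%). Their adjusted p in these fits ran from 0.212 to 0.701.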
